A study of Homo sapiens with 4 samples.

Results

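The genes described here are 33 members of glycolysis and of the transcriptional response to low oxygen, listed by name from these pathways with earlier results of these data known, out of 53826 gene entities with a value. They comprise the glucose transporter SLC2A1 and 15 glycolytic enzymes, a pair of enzymes that set the level of a phosphofructokinase activator (PFKFB3 and PFKFB4), and 15 further genes known as targets of the hypoxia-inducible factors. All 33 were matched by symbol, and 31 lay above the floor of the deposited scale in at least 1 library, as did 13944 of all entities. CA9 and BNIP3 were listed at 0 in every library.

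The cells were PK-1, a well-differentiated human line of pancreatic ductal adenocarcinoma, and the study compared cells with added SPRR1A, a small proline-rich protein of the cornified envelope, with cells that carried a fluorescent protein instead. In the stable model the cells had been transduced with the retroviral vector pMXs, carrying either SPRR1A or DsRed. In the transient model they had been transfected with the plasmid pCAG, carrying either SPRR1A or GFP, and RNA was taken 48 h later. SPRR1A was joined to a FLAG tag in both vectors, and the study's methods describe no change of oxygen or glucose between the groups. There was 1 library per condition, so nothing here has a replicate check, no p-value is given, and a difference is described only by its size. The transient and stable models differ in vector, fluorescent control, transfection and culture history together, and these cannot be told apart. Levels are log2 TPM (transcript abundance scaled for transcript length and library size), are given for the stable cells first (SPRR1A, then DsRed) and then for the transient cells (SPRR1A, then GFP), and do not go below 0, the floor, at which the TPM is 1 or lower.

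Glycolysis splits glucose to pyruvate in the cytosol, and lactate dehydrogenase then turns pyruvate to lactate when it is not burned in the mitochondria. Oxygen enters through the hypoxia-inducible factors: when oxygen is plentiful, prolyl hydroxylases of the EGLN family mark the alpha subunits HIF1A and EPAS1, and the VHL ubiquitin ligase has them degraded. When oxygen is scarce the alpha subunits persist, pair with ARNT and bind short DNA elements with the core ACGTG or GCGTG near glycolytic, angiogenic and mitophagy genes. Pancreatic ductal adenocarcinoma is known for poorly perfused, oxygen-poor tissue and for high use of glucose.

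Sequences upstream of a RefSeq start are shown for 7 members taken from the ends of the range described below. Each stretch was placed to hold a match to ACGTG or GCGTG, so the presence of a match in it is not a result. KDM3A and CA12 were more than 2-fold higher in transient than in stable cells in both arms. PFKFB4 and ANKRD37 were so in the control arm. LDHA and GAPDH are abundant enzymes with small differences, and BNIP3 is a member at the floor. The stretches are RefSeq promoter sequences of GRCh38.p14, written 5′ to 3′ on the strand of the gene. Capitals mark ACGTG or GCGTG on either strand, so that CACGT and CACGC are also in capitals and CACGTG counts once on each strand. The KDM3A stretch lies at chr2:86441333-86441362 on the plus strand, 38 to 9 bases before a RefSeq start. That of PFKFB4 lies at chr3:48556952-48556981 on the minus strand, 178 to 149 bases before a start. That of CA12 lies at chr15:63382007-63382096 on the minus strand, 250 to 161 bases before a start. The stretches of KDM3A, PFKFB4 and GAPDH lie inside the annotated span of the gene, before a start within it. These spans are 86437044 to 86492716, 48517684 to 48563136 and 6534517 to 6538371. ANKRD37 lies at chr4:185396649-185396738 on the plus strand, where the neighbouring gene LRP2BP is also annotated, LDHA at chr11:18394348-18394437 and GAPDH at chr12:6535153-6535242, both on the plus strand, and BNIP3 at chr10:131982007-131982096 on the minus strand.
KDM3A: ccgggaggctgtGCGTGtcttgtgagagct
PFKFB4: tgagttgggcatGCGTGgtcggaggccggg
CA12: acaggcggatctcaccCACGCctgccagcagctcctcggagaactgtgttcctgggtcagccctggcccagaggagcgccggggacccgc
ANKRD37: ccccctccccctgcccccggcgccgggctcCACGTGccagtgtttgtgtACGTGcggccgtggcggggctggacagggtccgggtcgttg
LDHA: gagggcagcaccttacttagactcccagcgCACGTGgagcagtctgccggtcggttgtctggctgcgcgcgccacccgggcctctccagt
GAPDH: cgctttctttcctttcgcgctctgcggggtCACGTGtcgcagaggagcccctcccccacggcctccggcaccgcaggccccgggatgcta
BNIP3: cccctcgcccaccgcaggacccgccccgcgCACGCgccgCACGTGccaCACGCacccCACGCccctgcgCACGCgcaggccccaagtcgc

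The core motif was frequent around the annotated starts of the members. RefSeq windows from 250 bases before to 50 bases after a start were held for 30 of the 33 members, the exceptions being VEGFA, BNIP3L and NDRG1. ACGTG or GCGTG stood on either strand in at least 1 window of 27 of these 30 genes (90%), against 69.0% of 10749 expressed genes (above the floor in at least 1 library) and 52.4% of all 27305 genes with a window. ACGTG alone stood in 18 of the 30 (60%), against 31.9% of expressed genes. By window the shares were 36 of 49 (73.5%) for the members and 60.3% for expressed genes, since some genes have several starts. Of the members past 2-fold in an arm, 4 of the 5 with a window held the motif, the exception being EGLN3, and 1 of the 5, ANKRD37, held ACGTG. BNIP3, at the floor, had 6 matches in the stretch shown. Such a match is a description of letters and not a binding site.

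Facts of the whole series bear on every value. SPRR1A itself stood at 10.93, 0.75, 16.60 and 3.56, highest in the libraries labelled SPRR1A, and in transient SPRR1A cells it took 9.90% of all TPM, which lowers the TPM of every other gene in that library. Over entities at 5 TPM or more in both libraries, the median difference was -0.11 for transient against stable SPRR1A, 0.12 for transient GFP against stable DsRed, 0.06 for stable SPRR1A against DsRed and -0.18 for transient SPRR1A against GFP. Centred values below are relative to these medians. The 4 libraries held 12964 to 13558 entities above the floor. All 7 ductal epithelial markers were above the floor in at least 3 libraries, KRT18 and KRT7 being the highest in stable SPRR1A cells at 7478 and 7206 TPM, and of 8 markers of other cell types 5 (PTPRC, PDGFRB, PECAM1, VWF and INS) were at 0 throughout, while CD68, COL1A1 and PRSS1 were above the floor in every library, from 15.9, 3.88 and 1.56 TPM upward.

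**Figure D1:**
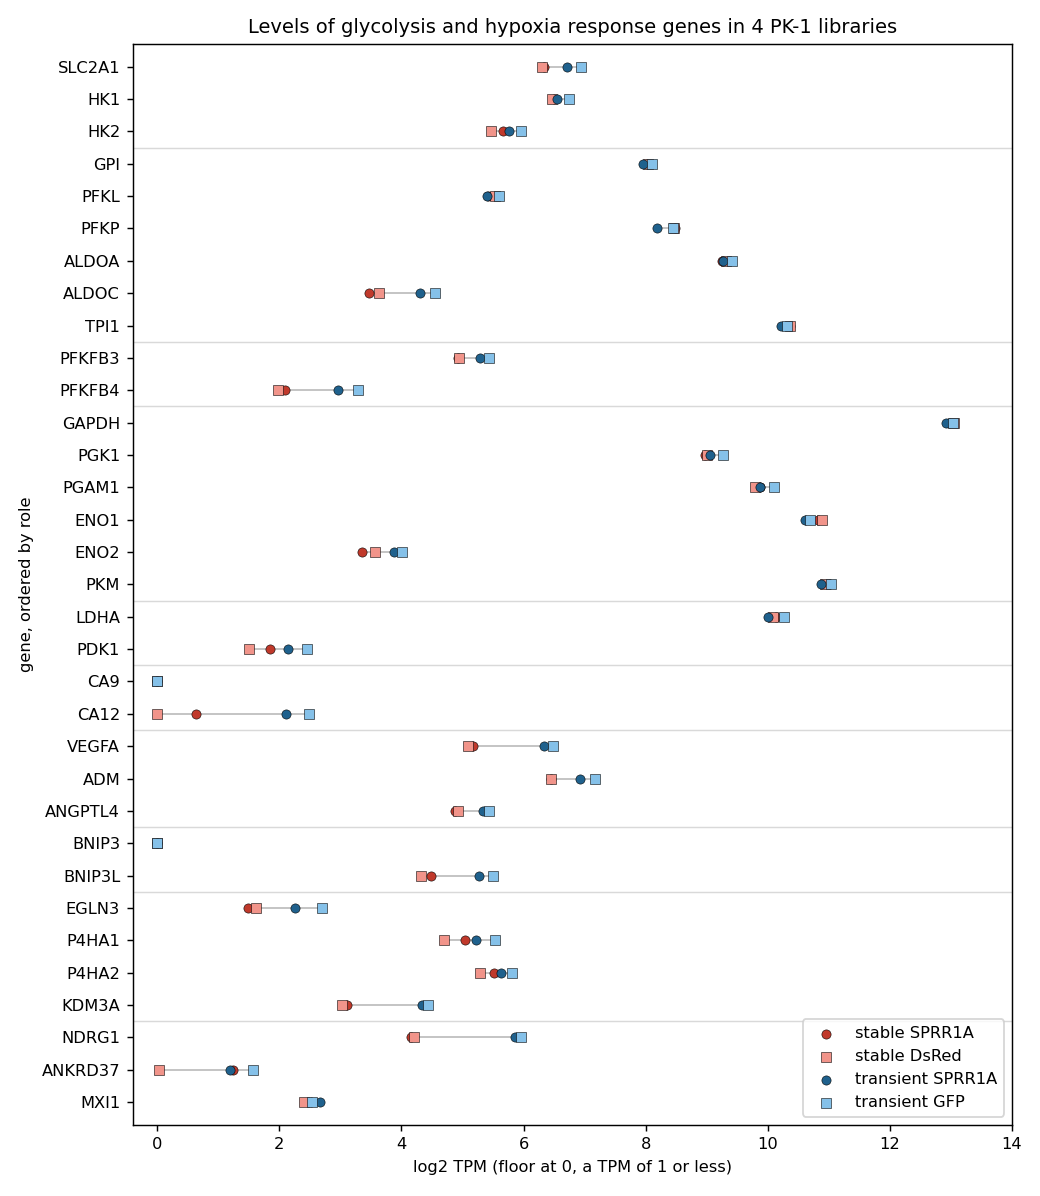
Level of each of the 33 members (rows, ordered by role, grey lines between roles) in the 4 libraries on the log2 TPM scale, 1 point per library, with a line from the lowest to the highest. The glycolytic enzymes with levels near 8 and above have 4 points close together, while those of VEGFA, KDM3A and NDRG1 split into a low stable pair and a high transient pair.

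The comparison of transient with stable cells asks how the members differ between the models whichever protein was expressed, and its arms, transient SPRR1A against stable SPRR1A cells and transient GFP against stable DsRed cells, share no library. NDRG1, KDM3A, VEGFA and the scarce CA12 were more than 2-fold higher in transient cells in both arms, while the 8 enzymes with a mean TPM of at least 500 differed by at most 0.30. In the SPRR1A arm 4 of the 31 members were more than 2-fold higher (CA12, VEGFA, KDM3A and NDRG1), beside 2.61% of all entities, and 0 were more than 2-fold lower, beside 0.974%. In the control arm 8 were more than 2-fold higher (the same 4 with PFKFB4, BNIP3L, EGLN3 and ANKRD37), beside 6.86% of all entities, and 0 were more than 2-fold lower, beside 0.661%. At 1.5-fold the counts were 8 higher beside 7.61% and 0 lower beside 5.54% in the SPRR1A arm, and 13 higher beside 19.9% and 0 lower beside 3.02% in the control arm. In RNA from a whole culture, a larger share of cells with a transcript and more transcript per cell cannot be told apart.

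Both transient libraries lay above both stable libraries for 21 of the 31 members, beside 33.5% of all entities, and below them for 3 (PFKP, TPI1 and ENO1), beside 26.2%. The 16 transporter and enzyme genes and the other 15 members with a value split here. Of the other 15, all but ANKRD37 had both transient libraries above both stable ones, against 7 of the 16 enzyme genes. The median difference of the 31 members was 0.15 in the SPRR1A arm and 0.49 in the control arm, where all entities had -0.08 and 0.18, and centred it was 0.26 and 0.37 against 0.03 and 0.06. For the 16 enzyme genes the medians were -0.01 and 0.15, with 0 past 2-fold in either arm, and for the other 15 they were 0.48 and 1.09. These gene sets also differed in level. At a mean of 1 to 5 TPM, 5.05% and 12.6% of entities were more than 2-fold higher, beside 1 and 3 of 4 members. At 5 to 20 TPM it was 2.59% and 7.90%, beside 1 and 2 of 5. At 20 to 100 TPM it was 1.10% and 3.00%, beside 2 and 3 of 11. At 100 to 500 TPM it was 0.735% and 1.25%, beside 0 of 3, and at 500 TPM or more 0.775% in each arm, beside 0 of 8. The shares at 500 TPM or more count SPRR1A itself. The member differences of the arms went together, with Pearson's r of 0.85 and Spearman's rho of 0.83 over 31 genes measured in the same libraries, beside 0.83 and 0.80 over the 9658 entities at 5 TPM or more in every library. Genes are not independent replicates, and the value over all entities was about as high. The members were higher in both arms for 22 genes, lower in both for 4 (PFKP, TPI1, GAPDH and ENO1) and opposite for 5 (GPI, PFKL, PKM, LDHA and ANKRD37). The same 3 counts came out after centring, but not for the same genes. Centred, PKM was lower in both arms, ANKRD37 was higher in both, and GAPDH and ALDOA went opposite ways. Centring turned the sign of 4 small differences in each arm, all of at most 0.11.

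**Figure D2:**
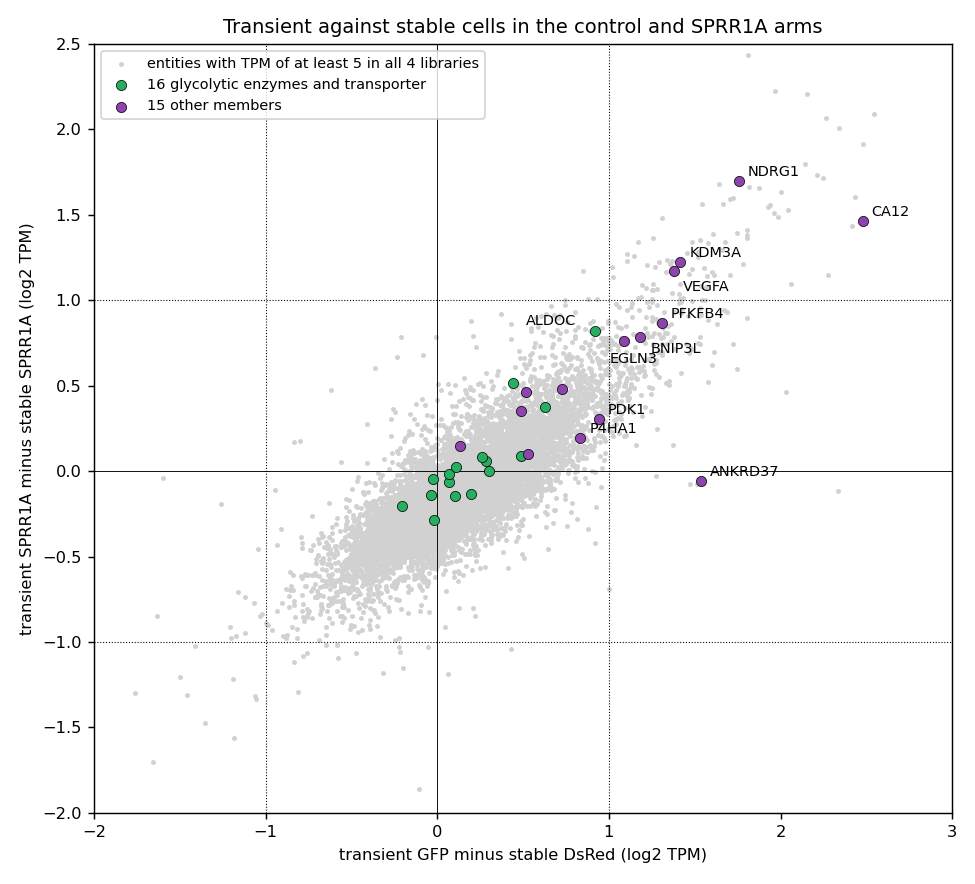
Difference between transient and stable cells in log2 TPM, control arm on the x axis and SPRR1A arm on the y axis, 1 point per gene, with 9651 entities in grey (7 lie outside the axes), the 16 transporter and enzyme genes in green and the 15 other members in purple. Dotted lines mark 2-fold. Of the green points ALDOC lies farthest from 0, followed by SLC2A1 and ENO2, the purple points spread to the upper right, ANKRD37 lies on the right near 0 on the y axis, and CA12, listed at 0 in stable DsRed, is placed on the x axis by its level in GFP cells.

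Transcripts of the genes for glucose entry and its first phosphorylation were a little higher in transient cells. SLC2A1 (GLUT1), the main basal glucose transporter, stood at 6.33, 6.31, 6.71 and 6.94, both transient values above both stable ones, with a difference of 0.38 in the SPRR1A arm and 0.63 in the control arm. HK1, the constitutive hexokinase that traps glucose in the cell, stood at 6.49, 6.46, 6.55 and 6.75, and differed by 0.06 in the SPRR1A arm and 0.29 in the control arm. HK2, its inducible relative, stood at 5.67, 5.47, 5.76 and 5.96, and differed by 0.09 in the SPRR1A arm and 0.49 in the control arm. The hexokinase mix hardly moved, with HK2 at 36.1%, 33.4%, 36.7% and 36.6% of the summed TPM of HK1 and HK2.

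The upper part of the pathway, from GPI to TPI1, showed small differences in 5 of its 6 genes. GPI, which isomerises glucose phosphate, was between 7.96 and 8.10 in all libraries, and ALDOA, the main aldolase, between 9.25 and 9.42. The platelet-type phosphofructokinase PFKP, the leading isozyme of the rate-setting step in these cells with 75.5% to 77.5% of phosphofructokinase TPM, stood at 8.48, 8.47, 8.19 and 8.45, and the liver-type PFKL at 5.41, 5.53, 5.40 and 5.59. TPI1, which interconverts the triose phosphates, stood at 10.36, 10.36, 10.22 and 10.32. These 5 genes differed by at most 0.28 between models in either arm. ALDOC, the brain-type aldolase, had the largest difference of the 16 transporter and enzyme genes in both arms, at 3.48, 3.63, 4.30 and 4.54. Its differences of 0.82 and 0.92 (1.77-fold and 1.89-fold) were short of 2-fold, and its share of aldolase TPM was 1.80% and 1.91% in stable cells and 3.08% and 3.29% in transient cells.

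The lower part of the pathway held the most abundant members. GAPDH, which makes the first high-energy intermediate, stood at 12.97, 13.06, 12.92 and 13.03, and ENO1, which makes phosphoenolpyruvate, at 10.81, 10.89, 10.61 and 10.69. PGK1 and PGAM1, the steps between them, ranged from 8.97 to 9.26 and from 9.80 to 10.10, and PKM, the pyruvate kinase that yields pyruvate, from 10.88 to 11.04. ENO1 was lower in transient cells in both arms, by 0.20 and 0.21, and PGAM1 differed by 0.00 and 0.30. The neuronal enolase ENO2 went the other way at 3.36, 3.57, 3.87 and 4.01, a difference of 0.52 and 0.44. It remained a minor isozyme, from 0.56% of enolase TPM in stable SPRR1A to 0.96% in transient GFP cells.

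At the fate of pyruvate, LDHA, which makes lactate, stood at 10.14, 10.08, 10.01 and 10.27, with differences of -0.13 and 0.19. Relative to its partner LDHB it was higher in transient cells, at 60.5% and 60.3% of their summed TPM in stable and 64.6% and 65.9% in transient cells. LDHB was lower in both transient libraries, at 738, 713, 565 and 641 TPM. PDK1, the kinase that shuts pyruvate out of the mitochondria, was scarce at 1.84, 1.51, 2.15 and 2.45. It was 0.30 higher in the SPRR1A arm and 0.94 higher in the control arm.

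Summed over the 16 transporter and enzyme genes, glycolysis took 1.73%, 1.77%, 1.64% and 1.80% of all TPM, and GAPDH alone 46.4% to 48.1% of that sum. Transient SPRR1A cells had the lowest share as deposited and the highest, 1.82%, when SPRR1A was left out of the total, so the order of the 4 libraries depends on the scale. The 8 members with a mean TPM of at least 500 differed between models by -0.20 to 0.08 in the SPRR1A arm and by -0.21 to 0.30 in the control arm, where all 258 entities of that level had standard deviations of 0.45 and 0.35 across genes. These entities include SPRR1A itself, whose large differences widen both standard deviations, so the spread of the other genes is smaller.

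The bifunctional enzymes PFKFB3 and PFKFB4 make and remove the sugar bisphosphate that switches phosphofructokinase on. PFKFB3 stood at 4.93, 4.95, 5.28 and 5.44, higher in both transient libraries by 0.35 and 0.49. PFKFB4 stood at 2.10, 1.97, 2.96 and 3.28, which was 1.82-fold higher in the SPRR1A arm and 2.48-fold higher in the control arm. With SPRR1A left out of the total its difference in the SPRR1A arm was 1.01, just past 2-fold. Its share among PFKFB2, PFKFB3 and PFKFB4 was 10.6% and 9.89% in stable and 14.4% and 15.7% in transient cells.

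Of the secreted members, VEGFA, the principal angiogenic growth factor (GRCh38 chromosome 6, 43770211 to 43786487, RefSeq), had the largest difference. It stood at 5.17, 5.10, 6.34 and 6.47, that is 36.0, 34.2, 80.8 and 88.9 TPM, and the stable and transient pairs did not overlap. The difference was 1.17 (2.25-fold) in the SPRR1A arm and 1.38 (2.60-fold) in the control arm, and 1.28 and 1.25 after centring. Among entities at 5 TPM or more in both libraries, 72 of 9843 and 98 of 9810 had a larger one. ADM, adrenomedullin, a vasodilator peptide, stood at 6.45, 6.45, 6.93 and 7.18, and ANGPTL4, an inhibitor of lipoprotein lipase, at 4.87, 4.92, 5.33 and 5.44. Both were higher in transient cells by less than 2-fold, ADM by 0.48 and 0.72 and ANGPTL4 by 0.46 and 0.52.

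NDRG1, a stress-responsive gene linked to differentiation and metastasis suppression, was the member with the largest difference that had a value in every library. It stood at 4.16, 4.21, 5.86 and 5.96 (17.9, 18.5, 58.0 and 62.4 TPM), a tight stable pair and a tight transient pair. The difference was 1.70 (3.24-fold) in the SPRR1A arm and 1.76 (3.38-fold) in the control arm, with 19 of 9843 and 37 of 9810 entities having a larger one. KDM3A, a histone demethylase that needs oxygen itself (chromosome 2, 86437044 to 86492716), stood at 3.11, 3.02, 4.34 and 4.44. It was 2.34-fold and 2.67-fold higher in transient cells, with 61 and 93 entities above it. The KDM3A stretch printed above carries a single GCGTG.

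Among the hydroxylases, EGLN3, the oxygen sensor whose own gene is a target of the pathway, was scarce at 1.49, 1.62, 2.25 and 2.71. It was 1.69-fold higher in the SPRR1A arm and 2.12-fold in the control arm, and 0.96 after centring in the control arm, just short of 2-fold. P4HA1 and P4HA2, which hydroxylate collagen, stood at 5.04, 4.70, 5.23 and 5.53 and at 5.52, 5.28, 5.63 and 5.81. Both had every transient value above every stable value, with differences of 0.19 and 0.83 for P4HA1 and 0.10 and 0.53 for P4HA2.

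Of the mitophagy receptors, which mark mitochondria for removal, BNIP3L stood at 4.49, 4.32, 5.28 and 5.50 and was 1.73-fold and 2.27-fold higher in transient cells. BNIP3 was listed at 0 in all libraries. The file also lists 143 pseudogene entities named after members, 40 of them of BNIP3 and 64 of GAPDH, and 142 of these were at 0 in every library. How reads shared between a gene and such copies were counted is not given in the sources used here, so the 0 of BNIP3 is what is listed and not a measured absence. BNIP3 also overlaps PPP2R2D, which had values of 3.14 to 3.37.

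Of the carbonic anhydrases that buffer acid outside the cell, CA9 was listed at 0 in all libraries. CA12 (chromosome 15, 63321378 to 63381846) stood at 0.64, 0, 2.11 and 2.48. It was 2.76-fold higher in transient than in stable SPRR1A cells, at 4.30 against 1.56 TPM. No fold is given for the control arm because stable DsRed was listed at 0, and CA12 counts as past 2-fold there since its GFP level alone lies more than 1 above the floor.

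ANKRD37, an ankyrin repeat protein (chromosome 4, 185396841 to 185400723), was the 1 member outside the enzyme genes, of 15 with a value, whose stable and transient levels overlapped. It stood at 1.25, 0.03, 1.19 and 1.57, so stable DsRed was the low library and the other 3 lay close together. The difference was -0.06 in the SPRR1A arm, 0.05 after centring, and 1.54 in the control arm. All 4 values are below 3 TPM, and UFSP2, whose gene overlaps it, stood at 3.78 or more in each library. MXI1, an antagonist of MYC, was nearly level at 2.51, 2.40, 2.66 and 2.54.

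Between SPRR1A and control cells of the same model, fewer members passed 2-fold than between models. Between stable SPRR1A and stable DsRed cells, 1 of 31 members, ANKRD37, was more than 2-fold higher (2.32-fold), beside 0.526% of all entities, and 0 were more than 2-fold lower, beside 0.421%. At 1.5-fold 2 were higher (ANKRD37 and CA12), beside 2.51%, and 0 lower, beside 1.46%. The next values among members at 5 TPM or more were P4HA1 at 0.33, P4HA2 at 0.24 and ENO2 at -0.21. The median over members was 0.02 and that over all entities 0.07.

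Between transient SPRR1A and transient GFP cells, 0 members were more than 2-fold higher, beside 0.190% of all entities, or lower, beside 0.700%. At 1.5-fold the counts were again 0 higher, beside 0.729%, and 0 lower, beside 3.20%. The differences ran from EGLN3 at -0.46 to MXI1 at 0.13. Of the 31 members 30 were lower in SPRR1A cells, with a median of -0.20, but the median of all entities was -0.19, and after centring 13 members were higher and 18 lower. Between the differences of the models, Pearson's r was -0.43 and Spearman's rho -0.36 over 31 genes measured in the same libraries. Over the 9658 entities at 5 TPM or more in every library they were -0.17 and -0.23. The members were not held to that minimum and include ANKRD37 and CA12, which lie near the floor, so the sets are not alike. In these contrasts 1 member (MXI1) was higher in both models, 14 were lower in both and 16 went opposite ways, and after centring the counts were 4, 8 and 19.

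**Figure D3:**
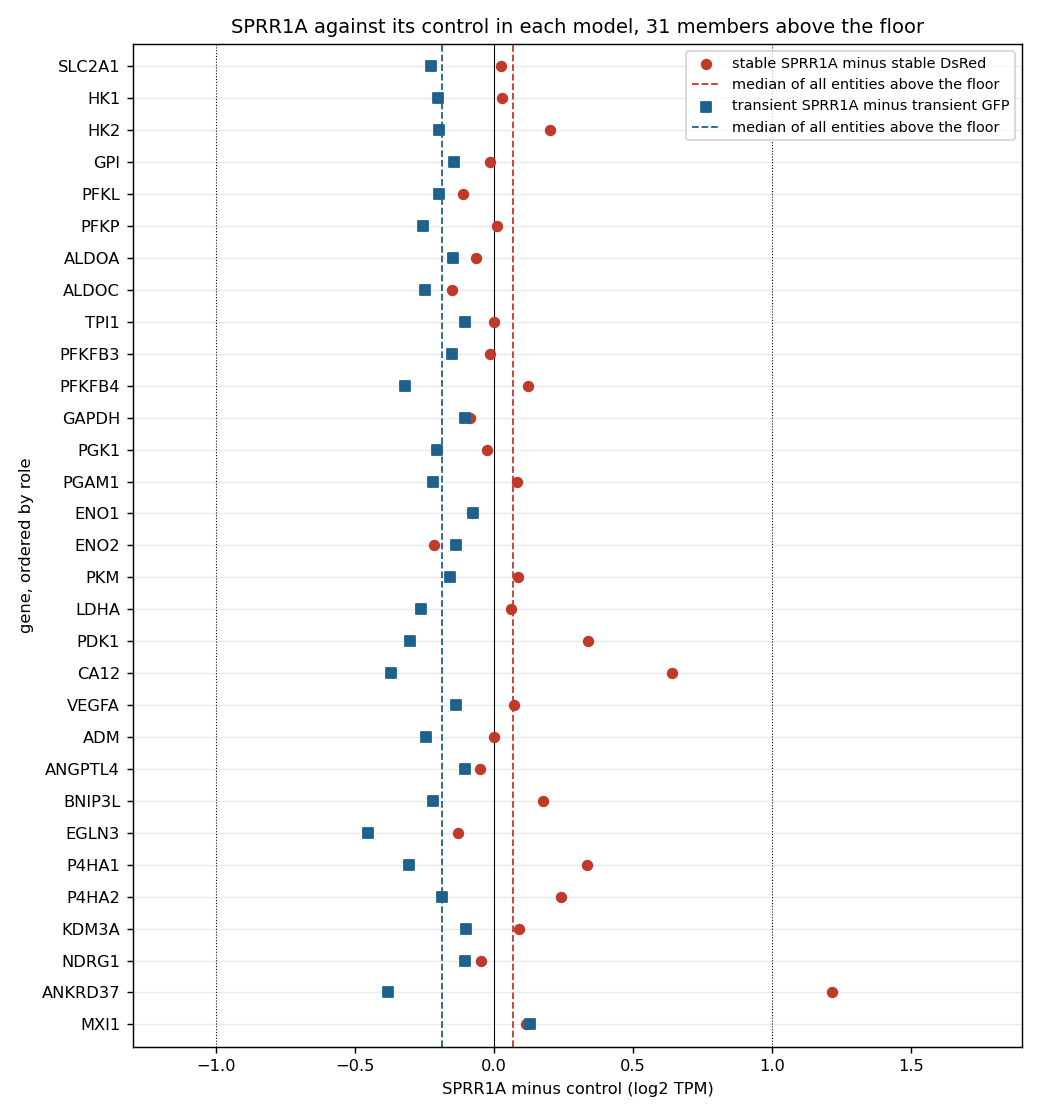
Difference between SPRR1A and control cells in log2 TPM for the 31 members with a value (rows, ordered by role), red circles for the stable and blue squares for the transient model. Dashed lines mark the medians of all entities with a value, 0.07 and -0.19, and dotted lines mark 2-fold. Most points lie near the dashed line of their model, and ANKRD37 in the stable model is the single point past a dotted line, while that of CA12 rests on a value listed at 0 in stable DsRed.

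The oxygen-sensing machinery itself was described by 8 regulators that are not members. HIF1A, the inducible alpha subunit, stood at 6.79, 6.49, 7.93 and 8.19 (110, 89.6, 244 and 293 TPM), and was 2.21-fold higher in the SPRR1A arm and 3.27-fold in the control arm. It was the 1 regulator of 7 with a value past 2-fold, in each arm, beside 2.61% of all entities higher by that much in the SPRR1A arm and 6.86% in the control arm. The antisense transcripts HIF1A-AS1 (0.58, 0, 2.07 and 2.39) and HIF1A-AS3 (0, 0, 1.77 and 1.35) also had higher transient values, and whether reads were counted by strand is not given in the sources used here. EPAS1, another alpha subunit, differed by -0.11 and 0.24, and its 4 values were 111 to 132 TPM. HIF3A, a further alpha subunit, was listed at 0 in all libraries. ARNT, the shared partner, was 0.38 and 0.55 higher and VHL, the ligase, 0.38 and 0.68 higher. Of the enzymes that hydroxylate the alpha subunits, EGLN1 differed by -0.01 and 0.32, EGLN2 by 0.16 and 0.12 and HIF1AN by -0.23 and 0.09.

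Of 29 further hypoxia targets outside the members, 1 of 26 with a value was more than 2-fold higher and 1 more than 2-fold lower in the SPRR1A arm, beside 2.61% and 0.974% of all entities, and 4 of 27 were more than 2-fold higher in the control arm, beside 6.86%. The medians were 0.29 and 0.59. BHLHE40, a circadian repressor, was 1.34 and TMEM45A 1.60 higher in the control arm, and BHLHE41 (1.09) and WSB1 were the others past 2-fold there. The pair past 2-fold in the SPRR1A arm, were BHLHE41 at 1.29 and PLOD2, a collagen lysyl hydroxylase, at -1.18, both with a TPM under 5. BHLHE41, PLOD2 and WSB1 are named after their values were seen. Of 7 glucose-responsive genes, which include the sensing factors MLXIP, MLXIPL and MLX and genes known to follow glucose, 3 were more than 2-fold higher in the SPRR1A arm, beside 2.61% of all entities, and 4 in the control arm, beside 6.86%. ARRDC3, an arrestin-domain protein, was 1.63 and 2.0 higher, and KLF10, a transcription factor, 1.15 and 1.37 higher. TXNIP, which restrains glucose uptake, stood at 113, 110, 261 and 256 TPM and was 1.21 and 1.22 higher. The fourth in the control arm was ARRDC4, at 1.26, named after its values were seen.

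In the neighbouring routes of glucose carbon few genes passed 2-fold, and at the shares of all entities lists of this size would also hold few. Of the genes for lactate transport and pyruvate handling, 0 of 12 with a value in the SPRR1A arm and 0 of 13 in the control arm passed 2-fold. Beside them, 2.61% of all entities were higher and 0.974% lower in the SPRR1A arm, and 6.86% higher and 0.661% lower in the control arm. The medians of the list were -0.16 and 0.14. SLC16A3, the lactate exporter, was between 301 and 341 TPM, and PDP1, a phosphatase that reactivates pyruvate dehydrogenase, differed by 0.08 and 0.73. Of the 7 pentose phosphate enzymes 0 passed 2-fold, beside the same shares of all entities. Their medians were -0.13 and -0.05, and PGLS, the lactonase of that route, was the farthest from 0 at -0.72 and -0.68. SLC16A3, PDP1 and PGLS are named after their values were seen. The 12 other glycolytic isozymes with a value had medians of 0.02 and 0.37. Of these, 1 was more than 2-fold lower in the SPRR1A arm, the transporter SLC2A3 (GLUT3), at 9.38, 5.04, 4.16 and 6.02 TPM, beside 0.974% of all entities. In the control arm 1 was more than 2-fold higher, beside 6.86%, HKDC1, which was listed at 0 in stable DsRed and is named after its values were seen.

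**Figure D4:**
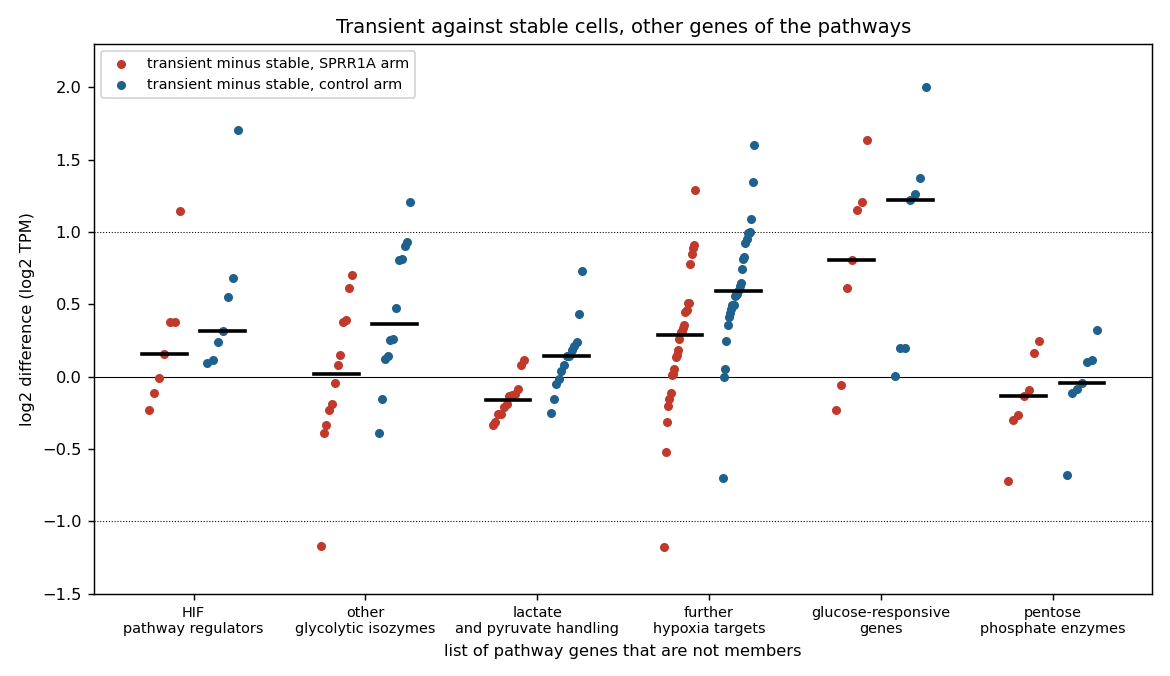
Difference between transient and stable cells in log2 TPM for genes of 6 lists that are not members (x axis), 1 point per gene with a value, red for the SPRR1A arm and blue for the control arm, black bars at the medians. The glucose-responsive genes have the highest medians, 0.81 and 1.22, and the lactate, pyruvate and pentose phosphate genes lie near 0 apart from single points. Points of genes listed at 0 in 1 library, such as HKDC1, are placed by their level in the other.

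Markers moved between the models alongside these genes. The 7 ductal epithelial markers summed to 25895 and 26470 TPM in stable cells and to 18255 and 20036 TPM in transient cells, with 5 of 7 lower in both transient libraries (the 4 keratins and EPCAM), beside 26.2% of all entities, and 2 higher, beside 33.5%. The 8 markers of other cell types summed to 23.6 and 21.3 TPM in stable and to 38.0 and 38.6 TPM in transient cells, and 2 of the 3 above the floor, CD68 and PRSS1, were higher in both transient libraries, beside 33.5% of all entities. Their part in the differences of the members was not tested.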

How the data were processed

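RNA of 4 PK-1 cultures was sequenced as mRNA, 1 library per condition. With Strand NGS at default settings, the authors mapped the read pairs to human hg38 transcripts, normalised to TPM and deposited log2 TPM per gene, with a floor at 0. The software version, the annotation release and the treatment of multiply matching reads are not given in the sources used here, and read depth is unknown.

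Differences of the deposited log2 TPM were computed for all entities above the floor in either library and called past 2-fold, since 1 library per group allows no test. The members and gene lists were chosen with earlier results of these data known. Full values were given for members past 2-fold, for the 5 members with the largest difference per comparison at a TPM of at least 5, and for the regulators of the hypoxia-inducible factors. Other list genes were named past 2-fold at that TPM, at most 5 per comparison. The alternatives were log2(TPM + 1), log2(TPM + 0.1), centring, SPRR1A left out of the total, a minimum of 5 TPM in both libraries, and 1.5-fold. The calculations were tested on simulated data. Promoters came from RefSeq (GRCh38.p14), as did the gene positions. Python 3.11.15, numpy 2.4.6, pandas 2.3.3 and matplotlib 3.10.9 were used.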

Additional observations from a re-analysis of the deposited data

Results flagged for a closer look

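ANKRD37 had opposite signs in the arms on the deposited scale, at -0.06 for transient against stable SPRR1A and 1.54 for transient GFP against stable DsRed, a difference of -1.60 between them. The first value was positive, 0.05, after centring and also positive with SPRR1A left out of the total, so the opposite sign is lost on these scales. The same value with the other sign, 1.60, separates SPRR1A against control in the stable model (1.22) from the transient model (-0.38), because both contrasts rest on the same 4 libraries. SLC2A3 was -1.17 in the SPRR1A arm and 0.25 in the control arm, a difference of -1.43. These genes were picked out because the contrasts had opposite signs with at least 1 past 2-fold. With 1 library per condition the difference was not tested.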

How the results depend on the processing

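No paired analysis was possible because there was only 1 library for each condition. At 1.5-fold in place of 2-fold, 8 members were higher in the SPRR1A arm, 13 in the control arm and 2 in stable SPRR1A against DsRed cells. With a minimum of 5 TPM in both libraries fewer genes were counted, and the share of all entities past 2-fold is not given for it. Under this minimum 3 members were past 2-fold in the SPRR1A arm, where CA12 was lost. The control arm had 4 and stable SPRR1A against DsRed cells 0. On the log2(TPM + 1) scale the last count was also 0, ANKRD37 being at 0.74. The share of TPM held by the 16 transporter and enzyme genes in transient SPRR1A cells was 1.82% with SPRR1A left out of the total. On log2(TPM + 1) EGLN3 was 0.89 and ANKRD37 0.97 in the control arm, and CA12 was 1.05 in the SPRR1A arm. A called value could not change its sign under these alternatives. Centring and leaving SPRR1A out shift values by less than 2-fold, and the others keep every sign. Over 2 scales added after seeing the data, both transient libraries lay above both stable ones for 21 members (centred, beside 38.9% of all entities) and 27 (without SPRR1A, beside 46.7%), and below them for 4 (beside 31%) and 2 (beside 23.7%). Values near the floor, such as those of CA12, ANKRD37, EGLN3 and PDK1, are the least certain, and neither counting error nor variation between cultures can be given.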
